A study of Drosophila melanogaster with 48 samples.

Results

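The gap genes are the first zygotic genes that divide the fly embryo along its anterior to posterior axis, and their transcripts were followed here in single embryos of Drosophila melanogaster. The members were hb, Kr, kni, knrl, gt, tll, hkb, oc, ems and btd, found in the count table by the FlyBase identifier that carries each symbol. All 10 were present among the 17481 genes of the table. The RNA came from 48 embryos of 8 wild-derived, untreated isofemale lines that had been inbred, 4 from Raleigh in North Carolina (RAL307, RAL357, RAL360 and RAL517) and 4 from Siavonga in Zambia (ZI050, ZI094, ZI160 and ZI470). From each line 3 embryos were taken at stage 2, when the RNA is supplied by the mother, and 3 at late stage 5, after zygotic transcription has begun and the blastoderm cells have formed. All lines were reared alike, in an incubator at 25 °C and 60% humidity, and the mothers were between 3 and 10 days old. The stage 5 embryos were all XY, and the sex of the stage 2 embryos was not determined. The study asked how transcript levels vary within and between these populations at both stages, and the same question is put here to the gap genes.

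Gap genes encode transcription factors, mostly repressors. Gradients of maternal Bicoid, Caudal and Hunchback protein and signalling from the Torso receptor at the poles switch them on in broad domains, and repression of one gap gene by another sharpens the borders of those domains. They in turn place the stripes of the pair-rule genes, so in each embryo a gap gene is transcribed in some nuclei and silent in others. Counts from whole embryos hold no position, and more expressing nuclei cannot be told apart from more RNA per nucleus.

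The genes differ in size and location. Coordinates are on the BDGP6 assembly. The trunk gap genes are hb (FBgn0001180, chr3R:8690980-8697822, minus strand), Kr (FBgn0001325, chr2R:25226611-25231394, plus strand), kni (FBgn0001320, chr3L:20692330-20695378, minus strand) and gt (FBgn0001150, chrX:2427113-2428967, minus strand). The neighbour and paralog of kni is knrl (FBgn0001323, chr3L:20597141-20620659, minus strand). The terminal gap genes are tll (FBgn0003720, chr3R:30852315-30854400, plus strand) and hkb (FBgn0261434, chr3R:4345015-4346646, minus strand). The head gap genes are oc, also called orthodenticle (FBgn0004102, chrX:8630159-8650681, minus strand), ems (FBgn0000576, chr3R:13901853-13904620, plus strand) and btd (FBgn0000233, chrX:9694186-9697558, plus strand). The longest introns were those of knrl, at 15117 bases, and oc, at 7507 bases, while gt, tll and hkb each had a longest intron below 129 bases, the median of the protein-coding genes in the table. No exon base of any gap gene was shared with another annotated gene.

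Counts per embryo summed to between 25090803 and 30783589 in 47 embryos. The exception was replicate 3 of RAL360 at stage 5, with 340746 counts, in which 1 count is worth 2.93 CPM (counts scaled to library size). Its gap gene values rest on few reads, for example 41 counts for hb and 12 for ems, and the values that move with it are also given without it. The stage labels were checked with 4 maternal markers (osk, bcd, nos and gcl), which summed to 1837 to 2818 CPM at stage 2 and 34.6 to 115.5 CPM at stage 5. The zygotic markers eve, ftz, twi and sna summed to at most 4.14 CPM at stage 2 and at least 988.5 CPM at stage 5. The summed level of 9 eggshell and yolk genes of the ovary did not exceed 0.63 CPM at stage 2 or 5.45 CPM at stage 5, and Cp16 was at 0 in every embryo. Pairs of embryos of a line and stage differed by more than sampling noise, with a chi-squared of at least 3.86 per degree of freedom. Embryos of a line came from many mothers, but the lines themselves are 4 per population.

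The question of the first comparison is how each gap gene changed from the maternal to the zygotic stage. Of the 10 genes, hb fell and the other 9 rose, by at least 488-fold in the fit. All 10 passed the test, edgeR's quasi-likelihood test with line as a term over 48 embryos and an adjusted p below 0.01. This says little by itself, because 92.5% of the 10193 genes tested passed it, 55.8% as higher and 36.7% as lower at stage 5. The median log2 fold change of the 10 gap genes was 9.19, against 0.61 over all genes tested.

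The gene hb encodes a zinc finger protein that is made both from a maternal transcript and from zygotic transcripts. At stage 2 the lowest, median and highest hb values over 24 embryos were 238.6, 295.1 and 339.9 CPM, from 7725 to 10595 counts per embryo. At stage 5 they were 82.3, 162.4 and 219.6 CPM. The ranges did not overlap. The fitted log2 fold change was -0.90 (SE 0.06, adjusted p = 3.7e-18), and it was -1.15 when libraries were scaled by total counts and -0.72 with DESeq2 size factors. The line means at stage 5 were 0.385 of the stage 2 mean in RAL357 and 0.709 of it in ZI470, with the other lines between. The table counts reads per gene, so the maternal and zygotic transcripts of hb cannot be told apart in it.

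The other 9 genes were near the limit of detection at stage 2. Kr, the zinc finger repressor of the central domain, had 2 to 24 counts per stage 2 embryo (lowest 0.064, median 0.31 and highest 0.76 CPM) and a median of 216.0 CPM at stage 5, with a range of 153.6 to 302.8. For ems the stage 2 embryos held 0 to 8 counts, and the stage 5 values ran from 31.1 to 75.9 CPM. In no embryo did any of these 9 genes exceed 28 counts at stage 2, a maximum reached by oc. For scale, 3 counts in a stage 2 embryo are worth 0.09 to 0.11 CPM.

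The rise in the fit was of similar size for all 9, but it varied between lines, whose stage 2 means rest on few counts. For ems it ran from 317-fold in RAL357 to 2857-fold in RAL307, and for kni from 585-fold in RAL357 to 1056-fold in RAL360. The fitted folds ran from 488 for gt to 765 for kni, the log2 values being 8.93 (SE 0.12) for gt, 9.10 (SE 0.15) for hkb, 9.12 (SE 0.13) for btd, 9.13 (SE 0.17) for tll, 9.25 (SE 0.14) for oc, 9.31 (SE 0.13) for Kr, 9.37 (SE 0.18) for ems, 9.41 (SE 0.09) for knrl and 9.58 (SE 0.10) for kni. Accordingly the gene with the highest CPM at stage 5, oc with a mean of 228.5, was also the highest of the 9 at stage 2, with a mean of 0.374, and ems was the lowest at both stages, with 50.7 and 0.0711. The pair-rule genes lay in the same narrow band, with all 8 called higher and log2 values from 9.11 for slp1 to 9.69 for h. The source of the few stage 2 counts was not tested. By adjusted p the leading gap genes were knrl (2.66e-49) and kni (5.29e-49).

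**Figure D1:**
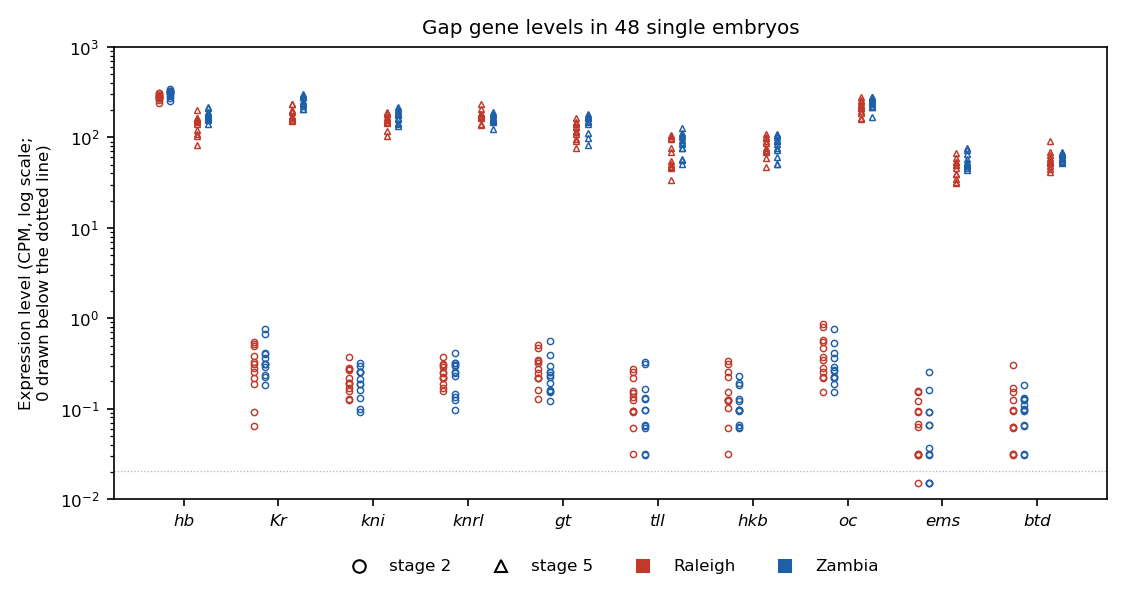
Level of each gap gene in CPM on a log scale, with circles for the 24 stage 2 embryos, triangles for the 24 stage 5 embryos, red for Raleigh and blue for Zambia; values of 0 are drawn below the dotted line. Only hb was abundant at stage 2 (238.6 to 339.9 CPM), and the other 9 genes rose from below 1 CPM to between 31.1 and 302.8 CPM.

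Most genes that act before the gap genes moved in the other direction. Of 9 maternal inputs, 8 were called lower at stage 5, with a median log2 fold change of -4.41. These included bcd, the anterior morphogen (-5.94, SE 0.15), osk, which assembles the germ plasm (-7.50, SE 0.11), cad, the posterior activator (-4.04, SE 0.07), and nos, which blocks translation of maternal hb RNA (-4.41, SE 0.21). Only stau, an RNA-binding protein, was called higher (0.31, SE 0.04). In the terminal system that activates tll and hkb, 6 of 8 genes were lower. Among them were the receptor tor (-3.03, SE 0.12) and the repressor cic (-0.88, SE 0.07). The corepressor gro (1.5, SE 0.03) and tsl (3.91, SE 0.46) were higher. But tsl was near the limit of detection at both stages, with population means of 0.005 CPM at stage 2 and 0.12 to 0.16 CPM at stage 5. Of 6 general activators and corepressors 4 were higher, including the early activator zld (0.78, SE 0.05), and Stat92E and CLAMP were lower.

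Nearly all listed genes that act beside or after them rose. Of 10 other head, tail and gap-like genes 9 were called higher, from slp1 (9.11, SE 0.15) to Optix (9.78, SE 0.24), and cnc was called lower (-1.86, SE 0.07). All 6 segment polarity genes were higher, with a median of 8.72, but their summed level reached only 53.8 to 353.0 CPM per stage 5 embryo, against 964.5 to 1602 CPM for the 10 gap genes. Among them inv stayed low, with population means of 0.06 to 0.10 CPM at stage 2 and 0.36 to 0.60 CPM at stage 5. Of 5 cellularization genes 4 were tested, and all 4 were higher, with a median of 4.73. The level of nullo was low at both stages, with population means of 0.10 to 0.16 CPM and 0.62 to 1.30 CPM.

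When levels were divided by exon length, the stage 5 gap genes fell into an order that was only partly separated. The length covers all annotated exons of a gene together. It can therefore overstate the transcript length of genes with several transcripts, such as oc with 6, and lower their place. The mean of the 8 lines was 75.3 CPM per kb (SD 16.7) for gt, a leucine zipper repressor expressed in an anterior and a posterior domain, and 74.3 (SD 9.86) for kni, a nuclear receptor-like repressor of the abdomen. Then came hkb with 51.6 (SD 8.72), Kr with 49.5 (SD 10.0), oc with 45.3 (SD 4.32), knrl with 43.2 (SD 4.11), hb with 41.6 (SD 7.53) and tll with 39.5 (SD 11.5). The lowest were ems with 20.5 (SD 3.87) and btd with 19.97 (SD 2.30). Of the 9 steps between neighbours in this order, 2 held in all 8 lines, from kni down to hkb and from tll down to ems. Every other neighbouring pair changed places in at least 2 of 8 lines.

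At stage 2 no gap gene passed the test between populations. After the filter on low counts 4 of the 10 could be tested, namely hb, Kr, gt and oc. None of the 4 was called, against 6.75% of the 7566 genes tested, and DESeq2's likelihood ratio test called none either. At an unadjusted p below 0.05 there was 1, hb, whose line means ran from 262.4 to 296.7 CPM in Raleigh and from 282.8 to 329.2 CPM in Zambia. Its log2 fold change, Zambia over Raleigh, was 0.14 (SE 0.05), with an edgeR adjusted p of 0.0528. For Kr, gt and oc the intervals were wide, for example -0.31 to 0.89 on the log2 scale for Kr, so differences of the size seen at stage 5 were not detectable at this depth.

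At stage 5 Kr was called between the populations over embryos, but not when the embryos of each line were summed (edgeR adjusted p = 0.253). Its values were higher in the Zambia lines, with a lowest, median and highest embryo of 208.3, 246.7 and 302.8 CPM, against 153.6, 169.3 and 237.0 CPM in Raleigh. Of the 12 Raleigh embryos 2 lay within the Zambia range. The line means did not overlap. Of these, 164.3 in RAL307, 170.2 in RAL517, 197.7 in RAL357 and 199.2 in RAL360 lay below 224.9 in ZI160, 240.9 in ZI094, 257.2 in ZI470 and 292.7 in ZI050. Without its embryo of few counts the mean of RAL360 was 215.4 CPM, still below that of ZI160. The log2 fold change was 0.47 (SE 0.08, 95% interval 0.31 to 0.63), with an edgeR adjusted p of 0.000318. In the background, 13.3% of the 10000 genes tested were called, 6.01% as higher in Zambia, and 3.92% had all 4 Zambia line means above all 4 Raleigh line means. So Kr was 1 gap gene called of 10, a share not above the background. At an adjusted p below 0.05 it was 2 of 10, against 26.6%.

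The other 9 genes did not pass. The nearest was hb, with 0.31 (SE 0.11, edgeR adjusted p = 0.0373) and with embryos from 140.5 to 219.6 CPM in Zambia and from 82.3 to 199.3 CPM in Raleigh. Adjusted p-values for the rest ran from 0.144 for ems to 0.828 for hkb. The estimates were positive for 9 of the 10 genes, the exception being knrl at -0.14 (SE 0.08), but for 7 of 10 when libraries were scaled by total counts alone, where hkb and btd turned negative. Their median was 0.21, against -0.004 over all genes tested. Scaling by total counts moved that median of all genes to -0.12, a shift of -0.11, and the share of calls that were higher in Zambia from 45.3% to 21.9%. The median of the gap genes was then 0.09, and Kr was still called, at 0.36 (SE 0.07).

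**Figure D2:**
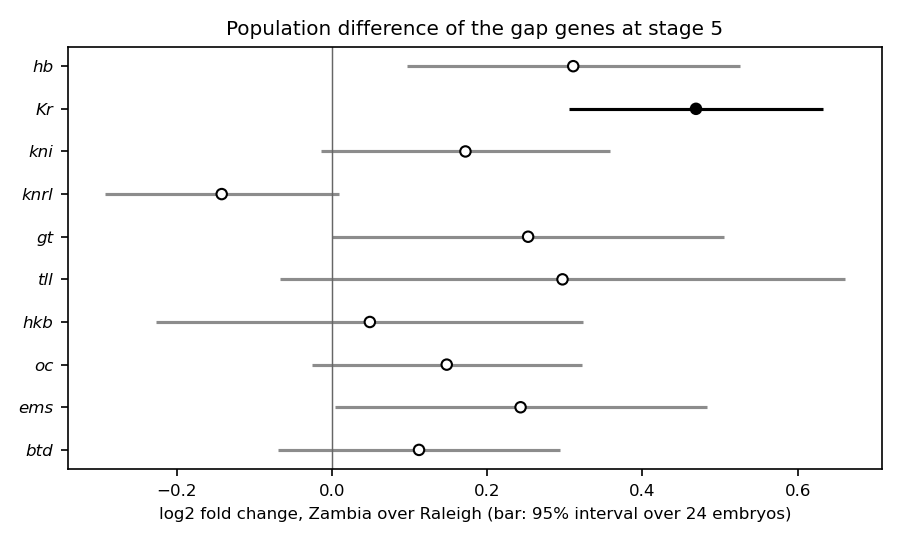
Log2 fold change of each gap gene at stage 5, Zambia over Raleigh, with its approximate 95% interval over 24 embryos. The filled point and black bar mark the gene called at an adjusted p below 0.01. Kr stood at 0.47 (0.31 to 0.63), the estimate for knrl was -0.14, and the other 8 estimates were positive but not called.

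A list of cellularization genes was, in sum, also higher in the Zambia lines. The summed level of the cellularization genes nullo, bnk, Sry-alpha, slam and halo, most of it slam, was 78.1, 344.0 and 636.1 CPM at the lowest, median and highest Raleigh embryo and 216.1, 766.0 and 1294 CPM in Zambia. Their line means were 233.9 to 428.0 CPM in Raleigh and 571.9 to 926.2 CPM in Zambia, and Sry-alpha was at 0 in all stage 5 embryos. Within a population the lines did not rank alike for this sum and for Kr. RAL307 had the highest Raleigh sum (428.0 CPM) and the lowest Kr mean (164.3 CPM). In Zambia ZI050 and ZI470 were above ZI094 and ZI160 in both. Of the 4 genes tested slam, needed for membrane growth between nuclei, was called higher in Zambia (1.31, SE 0.33, adjusted p = 0.00506), and the list's median was 0.73. For nullo, near the limit of detection, the mean was 1.30 CPM in Raleigh (SD of line means 1.98) and 0.62 CPM in Zambia (SD 0.28). The line means of the summed level did not overlap between populations, so a fit with it as a covariate could not fully separate it from population. With its log2 as a covariate, an alternative chosen after seeing the data, no gap gene was called. The Kr estimate was then 0.28 (SE 0.09, edgeR adjusted p = 0.0412), and 345 genes were called in all. When the embryos of each line were summed so that the 8 lines were the replicates, the estimate was 0.45 (SE 0.13, adjusted p = 0.253) and 1 gene was called in all. Leaving out any 1 of the 24 embryos kept the call, with estimates from 0.45 to 0.51. Whether embryos of the populations differed in their exact age within stage 5 was not tested.

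**Figure D3:**
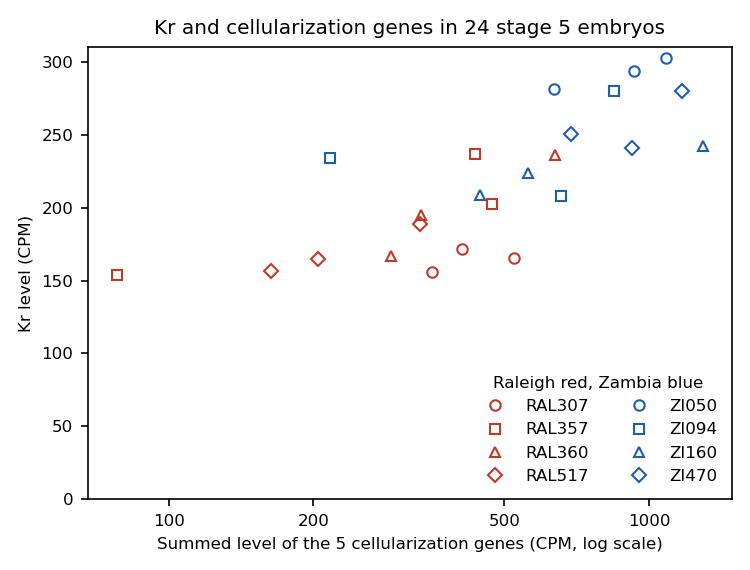
Kr level in CPM against the summed level of 5 cellularization genes in CPM on a log scale, for the 24 stage 5 embryos, with red for Raleigh, blue for Zambia and a marker for each line. Kr ran from 153.6 to 237.0 CPM in Raleigh and from 208.3 to 302.8 CPM in Zambia, and the cellularization genes were also lower in Raleigh (median 344.0 CPM) than in Zambia (median 766.0 CPM).

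Of the listed partners of the gap genes, those called between populations over embryos at stage 5 were all higher in Zambia. Their numbers are to be read against the 13.3% of all genes called. When the embryos of each line were summed, nearly all calls over all genes were lost, and these partners were not looked up in that fit. Among 8 pair-rule genes run (0.29, SE 0.07) and prd (0.27, SE 0.06) were called. From the other lists came cic, a repressor of tll and hkb (0.49, SE 0.10), the activator zld (0.26, SE 0.06), the gap-like gene D (0.40, SE 0.09) and the mesoderm gene twi (0.18, SE 0.05). None of the 9 maternal inputs and none of the 6 segment polarity genes was called, the medians being 0.03 and -0.31. At an adjusted p below 0.01 edgeR called no gap gene for a difference between populations in the change from stage 2 to stage 5, against 5.57% of the 10193 genes tested. None of the 10 had an unadjusted p below 0.05 in that interaction, and DESeq2 called none. The nearest was oc, at 0.54 (SE 0.27, adjusted p = 0.202). For the members other than hb the stage 2 counts were few, and the SE ran from 0.20 for knrl to 0.46 for ems. Differences of the size seen for Kr at stage 5 could therefore be missed.

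Within populations the lines were compared by a test of any difference among 4 lines with 3 embryos each. At stage 2 none of the 4 gap genes tested was called among the Raleigh lines, against 21% of all genes tested, and none of the 3 tested among the Zambia lines, against 17.2%. No member had an unadjusted p below 0.05 in either, and DESeq2 called none. Without replicate 1 of ZI470, hb was called among the Zambia lines (adjusted p = 0.00192), whose hb means ran from 282.8 CPM in ZI470 to 329.2 CPM in ZI050.

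At stage 5 gt, hb and tll were called for differences among the Zambia lines, but of these calls that of gt alone held in every fit tried. They were 3 gap genes of 10, a share below the 50.2% of all 9371 genes tested that were called. For gt the 3 embryos of ZI094 had 83.4, 97.6 and 112.0 CPM, those of ZI160 had 142.0, 148.7 and 180.0 CPM, those of ZI050 had 150.3, 165.2 and 165.6 CPM and those of ZI470 had 168.5, 168.9 and 172.6 CPM. All 3 ZI094 embryos were below the other 9. The test among the lines gave an adjusted p of 0.000135, and ZI094 against the mean of the other 3 lines gave a log2 fold change of -0.75 (SE 0.09, edgeR adjusted p = 5.08e-05), in a contrast where 23.2% of genes were called. This call held without any 1 of the 12 embryos and in the other 5 fits tried, with estimates between -0.86 and -0.65. The higher gt of ZI470 was less secure, at 0.34 (SE 0.09, adjusted p = 0.00716, background 24%), and kept its call in 3 of 12 fits that left out 1 embryo (replicates 1 and 3 of ZI094 and replicate 3 of ZI160), the adjusted p otherwise reaching 0.0294. It was also lost with total counts (0.0214) and with the cellularization covariate (0.0149).

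ZI094 was also the lowest Zambia line for hb, the gene that with gt and Kr patterns the trunk. Its embryos had 140.5, 154.3 and 161.4 CPM, against 163.5 to 219.6 CPM in the other 9, so that the groups did not overlap. The contrast was -0.30 (SE 0.07, edgeR adjusted p = 0.00695). The call was kept in 2 of 12 fits with 1 embryo left out (replicate 2 of ZI160 and replicate 2 of ZI470), reached an adjusted p of 0.0443 without replicate 2 of ZI094, and was lost with total counts (0.0181) and with the cellularization covariate (0.0275). Among the lines hb had an adjusted p of 0.00804, which passed the threshold in 2 of 12 fits with 1 embryo left out (replicate 3 of ZI160 and replicate 2 of ZI470) and otherwise reached 0.0303. It did not pass with DESeq2 size factors (0.0102), total counts (0.0238) or the covariate (0.0324). For tll the adjusted p was 0.00889, which passed in 4 of 12 such fits (replicates 1 and 3 of ZI094, replicate 2 of ZI160 and replicate 1 of ZI470) and otherwise reached 0.0282, and it was 0.0133 with the replicate block and 0.0113 with the covariate. Over the Zambia lines as a whole the number of gap genes called fell to 1, gt, without any 1 of the 3 replicates of ZI050, replicate 2 of ZI094, replicate 1 of ZI160 or replicate 3 of ZI470, and with the cellularization level as a covariate. DESeq2's likelihood ratio test called 5, adding Kr and btd, and at an adjusted p below 0.05 edgeR called 6, against 68.2% of all genes.

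The gene tll encodes a nuclear receptor that specifies both ends of the embryo, and it varied most among lines. The SD of its 8 line means was 0.45 on the log2(CPM + 0.5) scale and the SD within lines 0.34, against medians of 0.23 and 0.16 for the 4567 genes with a mean of at least 20 CPM. Without the RAL360 embryo of few counts the SDs of tll were 0.45 and 0.30. In RAL517 the embryos had 96.4, 99.0 and 106.4 CPM, and in RAL357 they had 34.0, 48.6 and 54.3 CPM. RAL307 had 46.2, 51.2 and 76.0 CPM, and RAL360 had 46.8, 69.4 and 102.6 CPM, the first of these 3 being the embryo with few counts. RAL517 and RAL357 did not overlap, and RAL360 spanned most of the range. Among the Zambia lines the means ran from 62.0 CPM in ZI470 to 107.9 CPM in ZI160.

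Among the Raleigh lines tll was the only gap gene called (edgeR adjusted p = 0.00587), 1 of 10 against 25% of all genes tested. No single line differed from the other 3 at the threshold. The contrast of RAL517 was 0.75 (SE 0.18, adjusted p = 0.0119) and that of RAL357 was -0.76 (SE 0.19, adjusted p = 0.0139), in contrasts that called 7.5% and 10.7% of genes. The count was sensitive to the embryos used: it was 0 without any 1 of the 3 RAL517 embryos, 2 (tll and gt) without the RAL360 embryo with few counts or without RAL357 replicate b, 2 (tll and hkb) without replicate 1 of RAL307, 3 (gt, tll and hkb) without replicate 2 of RAL307 and 3 (gt, tll and ems) without replicate 2 of RAL360. DESeq2 called 4, adding gt, ems and hkb to tll. Their edgeR adjusted p-values were 0.0121 for gt, 0.0145 for ems and 0.0254 for hkb, so that at 0.05 edgeR called the same 4, against 46.4% of all genes.

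The line RAL357 had the lowest Raleigh mean for 7 of the 10 genes. How often it was the lowest over all genes was not counted. Its contrast with the other 3 lines called no gap gene, against 10.7% of all genes tested. For gt, its embryos had 76.9, 95.2 and 109.2 CPM and those of RAL517, the highest, had 140.0, 142.9 and 163.4 CPM. For ems, a homeobox gene of the head, RAL357 had 31.1, 39.2 and 39.6 CPM and RAL307 had 53.0, 58.6 and 66.7 CPM. For hkb, the terminal zinc finger gene, RAL517 had 99.4, 101.2 and 108.5 CPM and the other 9 Raleigh embryos lay between 47.2 and 91.2 CPM. Within RAL357 the replicates were not alike: replicate a summed to 964.5 CPM over the 10 genes, the lowest of all stage 5 embryos, and replicate b to 1253 CPM, with all 10 genes above the line mean on the log2(CPM + 0.5) scale, although hb, at 108.8 CPM, was below its arithmetic mean of 111.0 CPM. Replicate a also had the lowest summed level of the cellularization genes, 78.1 CPM.

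**Figure D4:**
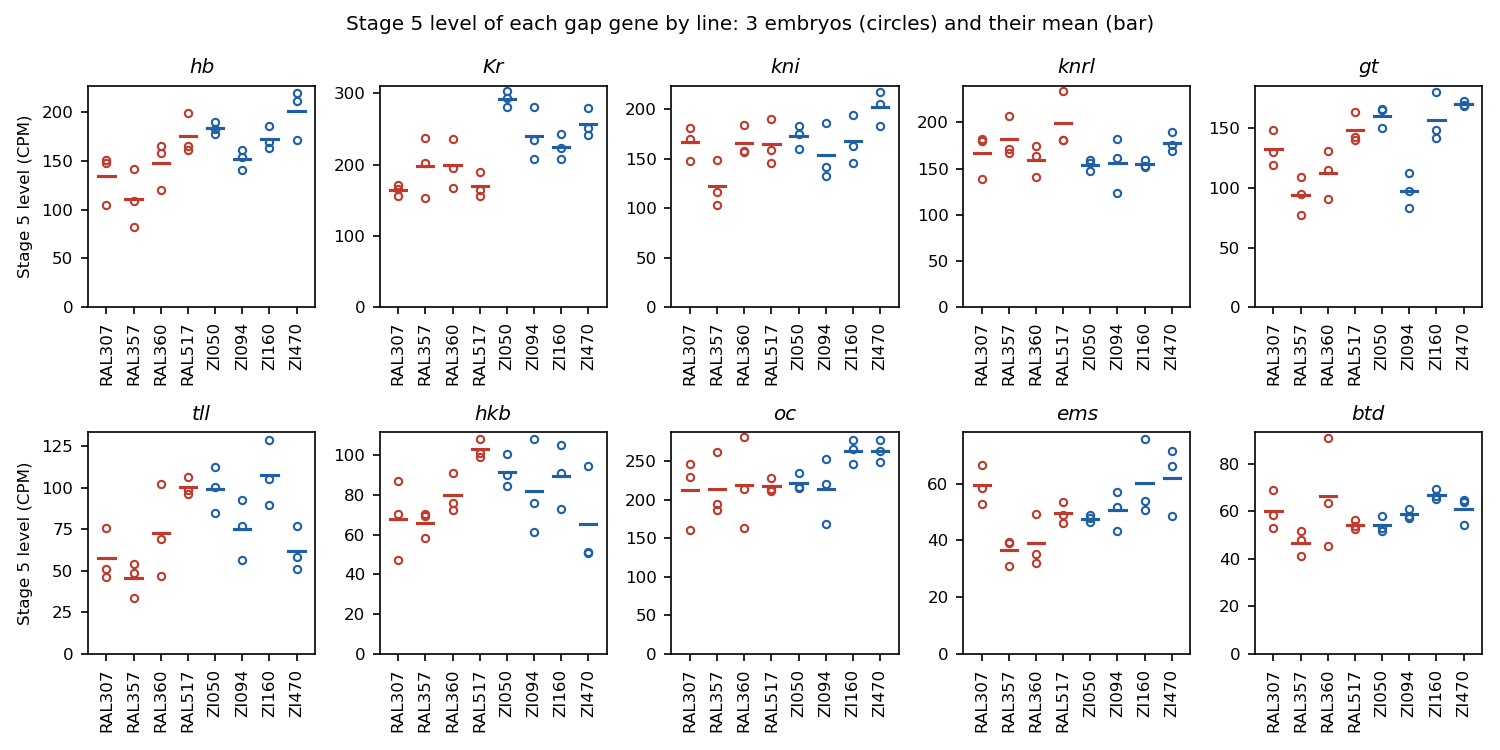
Stage 5 level in CPM of each gap gene by line, with circles for the 3 embryos, bars for their mean, red for Raleigh and blue for Zambia; each panel starts at 0. Kr line means were 224.9 to 292.7 CPM in Zambia and 164.3 to 199.2 CPM in Raleigh, gt was low in RAL357 and ZI094, and tll spread from 34.0 to 128.7 CPM.

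Line means of the remaining genes spread less widely. For oc, the homeobox gene of the anterior head, they were 212.4 to 220.0 CPM in Raleigh and 214.4 to 263.8 CPM in Zambia, and single Raleigh embryos ran from 161.1 to 281.6 CPM. The Raleigh range rests on the RAL360 embryo of few counts, without which the RAL360 mean was 248.1 CPM. For knrl, the paralog of kni, all line means lay between 154.5 and 198.9 CPM and neither population showed a difference among lines (adjusted p = 0.272 in Raleigh and 0.229 in Zambia). Its SD of line means was 0.13 on the log2 scale and its SD within lines 0.17. For btd, a zinc finger gene of the head, line means ran from 46.8 CPM in RAL357 to 67.1 CPM in ZI160.

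**Figure D5:**
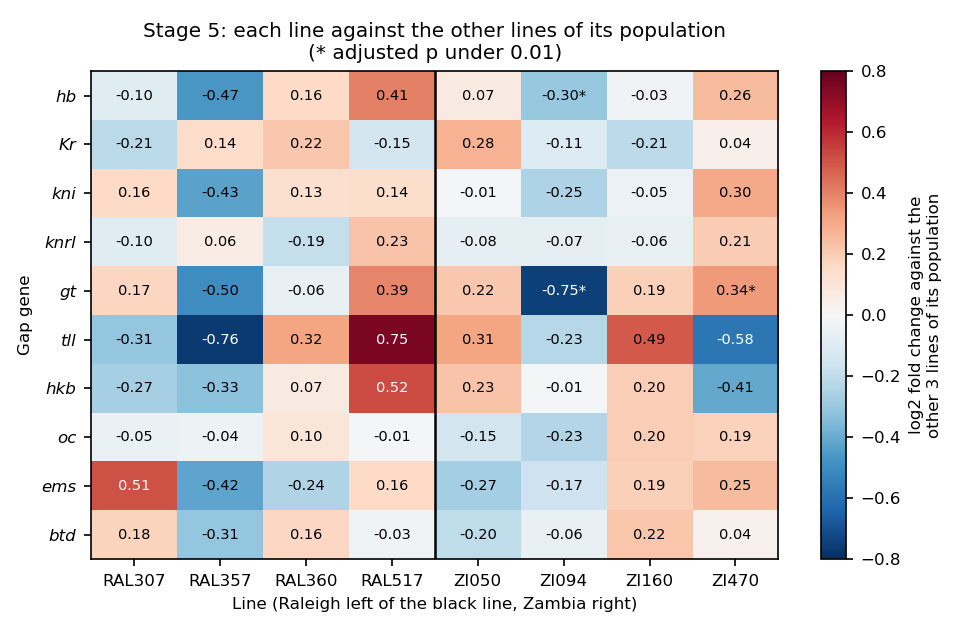
Log2 fold change of each gap gene at stage 5 in each line against the other 3 lines of its population, with a star at an adjusted p below 0.01. Stars stand at gt in ZI094 (-0.75), hb in ZI094 (-0.30) and gt in ZI470 (0.34), and the row of tll holds the widest Raleigh values (-0.76 and 0.75).

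Ratios within an embryo do not depend on the scaling of its library, and they set the members against each other per exon length at stage 5. The ratio of kni to knrl was 1.19 (SD 0.11, n = 3) in RAL357 and 2.00 (SD 0.08, n = 3) in ZI470. The ratio of tll to hkb ran from 0.557 (SD 0.15) in RAL357 to 0.959 (SD 0.03) in ZI160, so hkb exceeded tll in every embryo, the highest single value being 0.994. The ratio of gt to Kr was lowest in ZI094, at 1.04 (SD 0.30), and highest in RAL517, at 2.17 (SD 0.04). The ratio of hb to Kr ran from 0.641 (SD 0.04) in RAL357 to 1.18 (SD 0.05) in RAL517. These line differences are descriptions and were not tested.

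Over the 16 means of line and stage, the gene outside the 10 members whose profile lay closest to each of them was found by the root mean square difference of centred log2(CPM + 0.5) values. It was CG8765 for hb (0.14), rib for Kr (0.19), Ilp4 for kni (0.16), CG32982 for knrl (0.19), CG14427 for gt (0.20), grnd for tll (0.24) and hkb (0.16), corn for oc (0.17) and croc, itself a head gene, for ems (0.16) and btd (0.12). Among the members the mutually closest pairs were kni and knrl (0.19), tll and hkb (0.17), and ems and btd (0.20). The stage 2 values of these genes lay below the added 0.5, so closeness on this scale largely follows the stage 5 level. The stage 5 means were 164.5 and 168.8 CPM for kni and knrl and 77.7 and 80.8 CPM for tll and hkb. They were 50.7 CPM for ems, 58.6 CPM for btd and 54.4 CPM for croc. Shared regulation was not tested. The nearest member to hb was ems, at a distance of 3.69.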

How the data were processed

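Counts per gene of 48 single-embryo poly-A libraries were used as the authors deposited them, as raw counts without normalization. The authors used Cutadapt 1.7 for trimming of 100 bp paired reads, HISAT2 2.1.0 for alignment (FlyBase release 6.18) and featureCounts for counting; the strand setting of the counting is not given in the sources used here. Poly-A selection means that only polyadenylated RNA was seen. Of the 17481 genes, 17343 matched the BDGP6.54 annotation, which is newer and on the same assembly, and the rest held 1.13% of counts. Gene positions and exon lengths came from it.

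The members and lists were chosen with earlier results of these data known. The lists were maternal inputs, the terminal system, activators and corepressors, pair-rule, other gap-like, cellularization and segment polarity genes, and 3 marker sets. All members are named, as are list genes called in a comparison or at the ends of a range. The 3 RAL357 columns of a stage share a replicate number, so its embryos are called a, b and c.

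CPM (counts scaled by library size) used TMM factors over 48 embryos. Tests were edgeR 4.0.16 (R 4.3.3) quasi-likelihood tests within each comparison (filterByExpr, minimum count 10, total 15; Benjamini-Hochberg over all genes tested, adjusted p below 0.01). They were tested on simulated data. In the simulation of the test between populations, the lines of a population did not differ. It therefore cannot show how line differences affect that test. SE is the size of the log2 fold change divided by the square root of F. Populations were compared over embryos, with no term for line, as the study did. Alternatives were DESeq2 1.42.0, its size factors, total counts, no filter, a replicate block, summed embryos, a cellularization covariate and leaving out each embryo. Floors cover counting error only. The 95% intervals were built from the SE of the fit and include spread between embryos. P-values measure spread between embryos, 3 a line, except in the fit of summed embryos, where they measure spread between lines.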

Additional observations from a re-analysis of the deposited data

Results flagged for a closer look

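Of 40 groups of 4 line means, 3 held a line whose gap to the nearest other line took up more of the group's range than Dixon's 95% critical value allows, which chance gives in about 5% of groups. For kni at stage 5 the Raleigh line RAL357 was lowest, with a mean of 122.8 CPM against 164.7 to 166.3 CPM in the other 3 Raleigh lines; its contrast with them was -0.43 (SE 0.12, edgeR adjusted p = 0.0247). Without the RAL360 embryo of few counts the RAL360 mean of kni was 156.9 CPM and RAL357 no longer passed the critical value, whereas for oc the RAL360 mean of 248.1 CPM then did. For knrl at stage 5 the Zambia line ZI470 was highest, with 177.7 CPM against 154.5 to 156.0 CPM. For gt at stage 2 ZI470 was highest, with 0.417 CPM against 0.180 to 0.216 CPM, from 39 counts over its 3 embryos.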

How the results depend on the processing

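Between stages all 10 gap genes were called under all 8 other settings and without any 1 of 48 embryos; at stage 2 between populations, within Raleigh at stage 2, and in the interaction, none was called under any setting. Between populations at stage 5 the count of 1 was 2 (hb and Kr) at an adjusted p below 0.05, and 0 with the cellularization covariate and with embryos of each line summed; it was 1 in each fit that left out 1 embryo, and the adjusted p of Kr ranged from 5.79e-06 with DESeq2 to 0.253. Within Raleigh at stage 5 the count of 1 was 4 at 0.05, 4 with DESeq2, 2 with its size factors, 3 without a filter, 3 with total counts, 3 with the covariate, and 0 to 3 with 1 embryo left out. Within Zambia at stage 5 the count of 3 was 6 at 0.05, 5 with DESeq2, 1 with the covariate, and 1 to 4 with 1 embryo left out; at stage 2 it was 0 to 1.

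Deviations of same-numbered embryos correlated above 0.1 in 13 of 63 pairs at stage 2 and 10 of 63 at stage 5. Differently numbered pairs were not examined, so these counts cannot show whether replicate numbers pair embryos. With the replicate number as a block, and RAL357 left out, the counts of gap genes called were 10 between stages, 0 and 1 between populations at stages 2 and 5, 0 within Raleigh at both stages, 0 and 2 within Zambia, and 0 in the interaction. Within Raleigh at stage 5 the count was also 0 without the block when RAL357 was left out. Over all genes the block left 721 calls at stage 5 between populations, against 1326, and 903 without the block on the same embryos.

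Only estimates that passed no test changed sign. For Zambia over Raleigh these were gt at stage 2 (0.062 with the block and 0.058 without RAL357), and at stage 5 kni (-0.054 with the covariate), hkb (-0.0435 with the block, -0.034 without RAL357, -0.064 with total counts and -0.0054 to 0.10 with 1 embryo left out, the lowest without RAL307 replicate 1) and btd (-0.0023 with total counts). In the interaction they were ems (-0.12 with the block and -0.11 without RAL357) and btd (-0.26 with the block, -0.26 without RAL357 and -0.10 to 0.31 with 1 embryo left out, the lowest without RAL357 replicate b). Low counts limit the precision of the stage 2 comparisons, where 9 members had 28 counts or fewer per embryo in libraries as deep as those of stage 5, and of the RAL360 stage 5 embryo with 340746 counts.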
